A study of Homo sapiens with 8 samples.

Results

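The genes described here are 8 transcription factors that establish and maintain the hepatocyte program: HNF4A, FOXA1, FOXA2, FOXA3, CEBPA, CEBPB, NR1H4 and NR5A2. They were picked by gene symbol from their known roles, by a rule that uses no measured value, although earlier results of these data were known when the set was drawn up, and make up 8 of the 17076 genes listed in the expression tables. The study asked how the amount of UPF1, an RNA helicase of nonsense-mediated mRNA decay, alters the transcriptome of Huh7, an established hepatocellular carcinoma cell line. Messenger RNA was sequenced in 4 groups of 2 libraries. In the depletion experiment, UPF1 siRNA (siUPF1) was set against control siRNA (siControl). In the overexpression experiment, a vector for MYC-tagged UPF1 (MYC-UPF1) was set against the vector for the MYC tag alone (MYC). All groups are parental Huh7 cells, 1 line from 1 tumor, and the overexpression comes from transient transfection, so a group can hold untransfected cells.

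HNF4A is a nuclear receptor that acts as a homodimer at many hepatocyte promoters and enhancers. The FOXA proteins are pioneer factors, which open chromatin at liver enhancers so that other factors can bind. The C/EBP proteins are basic leucine zipper factors: C/EBPα, encoded by CEBPA, drives differentiated metabolic functions and restrains growth, whereas C/EBPβ, encoded by CEBPB, is induced in the acute phase response and in regeneration. NR1H4 encodes the bile acid receptor FXR, and NR5A2 encodes LRH-1, which acts with FXR and its target SHP in the control of bile acid synthesis. These factors bind each other's regulatory regions and form a mutually reinforcing network in liver.

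The base composition of the transcripts differed widely among the 8 genes. Differences between replicates outside siControl and between the controls broadly ran with it, whereas several after depletion or overexpression did not. For the members this relation was not tested. The first 90 coding bases of the canonical transcripts are printed for the 2 members richest and the 2 poorest in GC, 5′ to 3′ in the coding sense, with the start codon in capitals. They were read from GENCODE release 44 on GRCh37 (hg19).
CEBPA: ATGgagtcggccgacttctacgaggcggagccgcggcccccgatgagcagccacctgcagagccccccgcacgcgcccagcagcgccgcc
CEBPB: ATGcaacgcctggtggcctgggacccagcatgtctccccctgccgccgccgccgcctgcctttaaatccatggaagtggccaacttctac
NR1H4: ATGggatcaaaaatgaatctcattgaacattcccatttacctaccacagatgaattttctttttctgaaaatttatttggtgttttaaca
NR5A2: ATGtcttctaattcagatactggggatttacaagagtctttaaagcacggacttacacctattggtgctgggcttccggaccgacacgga
The CEBPA window lies at chr19:33793231-33793320 on the minus strand, in the only exon of the gene, with 75.6% GC and 12 CpG dinucleotides. The CEBPB window lies at chr20:48807571-48807660 on the plus strand, also in a single exon, with 63.3% GC and 5 CpG dinucleotides. The NR1H4 window starts in exon 3 of 11 and runs over 1 splice junction, from 100887102 to 100904566 on the plus strand of chromosome 12, with 28.9% GC and 0 CpG dinucleotides. The NR5A2 window starts in exon 1 of 8 and also crosses 1 junction, from 199996976 to 200008811 on the plus strand of chromosome 1, with 46.7% GC and 4 CpG dinucleotides. Over the whole canonical transcript, GC content was 66.2% for CEBPB, 65.9% for CEBPA, 60.1% for FOXA3, 59.1% for FOXA2, 55.0% for HNF4A, 50.4% for FOXA1, 40.2% for NR1H4 and 40.1% for NR5A2.

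The other members lie on chromosome 20 (HNF4A, 42984339 to 43061485, plus strand, and FOXA2, 22561636 to 22566093, minus strand), chromosome 14 (FOXA1, 38058757 to 38065264, minus strand) and chromosome 19 (FOXA3, 46367247 to 46377055, plus strand). Exons of another annotated gene overlap those of HNF4A (MIR3646, same strand), FOXA1 (TTC6, opposite strand), CEBPB (CEBPB-AS1, opposite strand) and CEBPA (a pair of unnamed genes on the opposite strand). The library kit keeps strand, but whether strand was used in the counting is not given in the sources used here, so reads of these overlaps cannot be assigned with certainty. Since the series turns on nonsense-mediated decay, the annotated isoforms were counted. GENCODE marks 1 of 17 HNF4A transcripts, 1 of 5 FOXA1 transcripts, 2 of 11 NR1H4 transcripts and 1 of 6 NR5A2 transcripts as decay substrates, and none for FOXA2, FOXA3, CEBPA or CEBPB. The tables hold 1 value per gene, so these isoforms were not separated.

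Expression was given as FPKM, the fragment count scaled to transcript length and library size, which holds no read number, so depth and counting error are unknown. UPF1 was at 44.5 and 47.4 FPKM in siControl, 20.7 and 21.9 in siUPF1, 45.1 and 57.4 in MYC, and 2835 and 2484 in MYC-UPF1. The hepatocyte label was read from levels, since no listed gene had a value of 0 in any library. The 10 hepatocyte markers, all listed, summed to 20911 to 24427 FPKM. Among them ALB lay between 6550 and 8371 FPKM and AFP between 11093 and 12505 FPKM. Markers of other liver cells summed to 52.7 to 60.3 FPKM for cholangiocytes (5 of 6 listed, mostly EPCAM and SOX9, with KRT19 under 0.5), 123 to 188 FPKM for mesenchymal cells (4 of 8 listed, nearly all VIM), 166 to 233 FPKM for leukocytes (3 of 6 listed, nearly all LYZ) and 0.535 to 0.796 FPKM for endothelial cells (1 of 4 listed). Group differences were taken on the log2(FPKM + 1) scale and tested with limma among genes whose mean reached 0.5 FPKM in the libraries compared, and all 8 members passed this minimum. Values were also computed after GC correction, in which each library's smooth dependence on transcript GC content and length was subtracted. Calls were made at an unadjusted p of 0.05, the study's threshold, and at a Benjamini-Hochberg adjusted p of 0.05 over all genes tested. With 2 libraries against 2, an exact two-sided permutation test of 1 gene cannot go below 0.333. Nothing states that the libraries of a group are separate cultures, so the p-values measure only the spread between these samples. In bulk RNA, fewer cells of a type and less RNA per cell cannot be told apart.

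All 8 factors were expressed in all 8 libraries, and their order was nearly fixed. CEBPA led with 93.0 to 125.6 FPKM and a mean of 107.6, which placed it at the 96.4th to 97.5th percentile of the listed genes. HNF4A followed with 38.5 to 49.0 FPKM (mean 43.1) and NR1H4 with 25.7 to 30.4 FPKM (mean 27.9). The pioneer factors lay below, FOXA3 at 20.1 to 25.1 FPKM (mean 23.0), FOXA1 at 16.7 to 19.7 FPKM (mean 18.4) and FOXA2 at 15.6 to 19.3 FPKM (mean 17.1). CEBPB at 8.53 to 13.4 FPKM (mean 10.50) and NR5A2 at 4.99 to 7.43 FPKM (mean 6.34) were the lowest, and NR5A2 lay between the 53.5th and the 63.0th percentile. Each gene of this order exceeded the next in 8 of 8 libraries, with 1 exception, FOXA1 over FOXA2 in 6 of 8, so that those neighbours did not differ beyond their spread. The most expressed C/EBP gene exceeded HNF4A 2.50-fold on average, and neighbours among the FOXA genes were 1.25-fold and 1.07-fold apart. Over the 8 libraries the highest value exceeded the lowest 1.18-fold for FOXA1, 1.19-fold for NR1H4, 1.24-fold for FOXA2, 1.25-fold for FOXA3, 1.27-fold for HNF4A, 1.35-fold for CEBPA, 1.49-fold for NR5A2 and 1.57-fold for CEBPB.

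**Figure D1:**
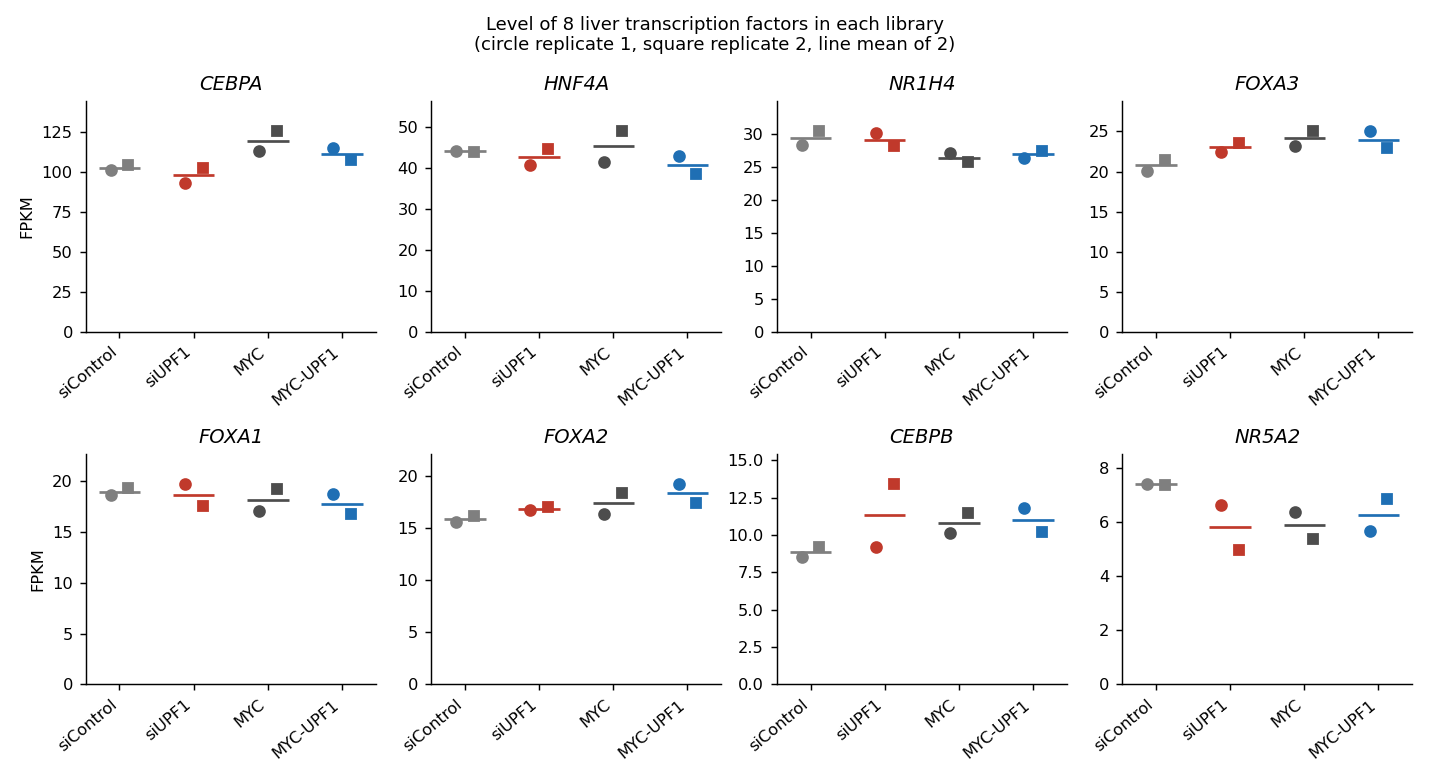
FPKM of the 8 factors (y axis from 0, a scale of its own for each gene) in each library of the 4 groups, with replicate 1 as a circle, replicate 2 as a square and the mean as a line. CEBPA reaches 125.6 FPKM in MYC replicate 2, CEBPB is highest in siUPF1 replicate 2 at 13.4, and NR5A2 is lowest there at 4.99.

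Outside siControl, the 2 libraries of a group differed in a pattern that broadly ran with GC content. Between the siControl libraries the log2(FPKM + 1) differences of the members were small, from -0.01 for HNF4A and NR5A2 to 0.10 for CEBPB and NR1H4. Between the siUPF1 libraries, replicate 2 was higher than replicate 1 for CEBPB (0.50), CEBPA (0.14), HNF4A (0.13), FOXA3 (0.06) and FOXA2 (0.02) and lower for NR1H4 (-0.09), FOXA1 (-0.16) and NR5A2 (-0.35). In the MYC group, the 6 members of higher GC content were higher in replicate 2, by 0.11 to 0.23, while NR1H4 (-0.08) and NR5A2 (-0.20) were lower. In the MYC-UPF1 group the same 6 members were lower in replicate 2, by values from -0.10 to -0.19, while NR1H4 (0.05) and NR5A2 (0.24) were higher. Medians over all genes also sloped with GC content in siUPF1, MYC and MYC-UPF1, but hardly in siControl. With the genes cut into 10 classes of equal size by GC content, the median difference between the 2 libraries went from -0.20 in the poorest class to 0.23 in the richest for siUPF1, from -0.18 to 0.21 for MYC, from 0.22 to -0.11 for MYC-UPF1, and from 0.08 to 0.07 for siControl. The siUPF1 libraries differed from each other by more than siUPF1 differed from siControl for 6 of 8 members, and the MYC-UPF1 libraries differed from each other by more than MYC-UPF1 differed from MYC for 8 of 8. The share of all genes for which this held was not computed. Single libraries also vary more than means of 2, so the counts say nothing particular to the members.

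**Figure D2:**
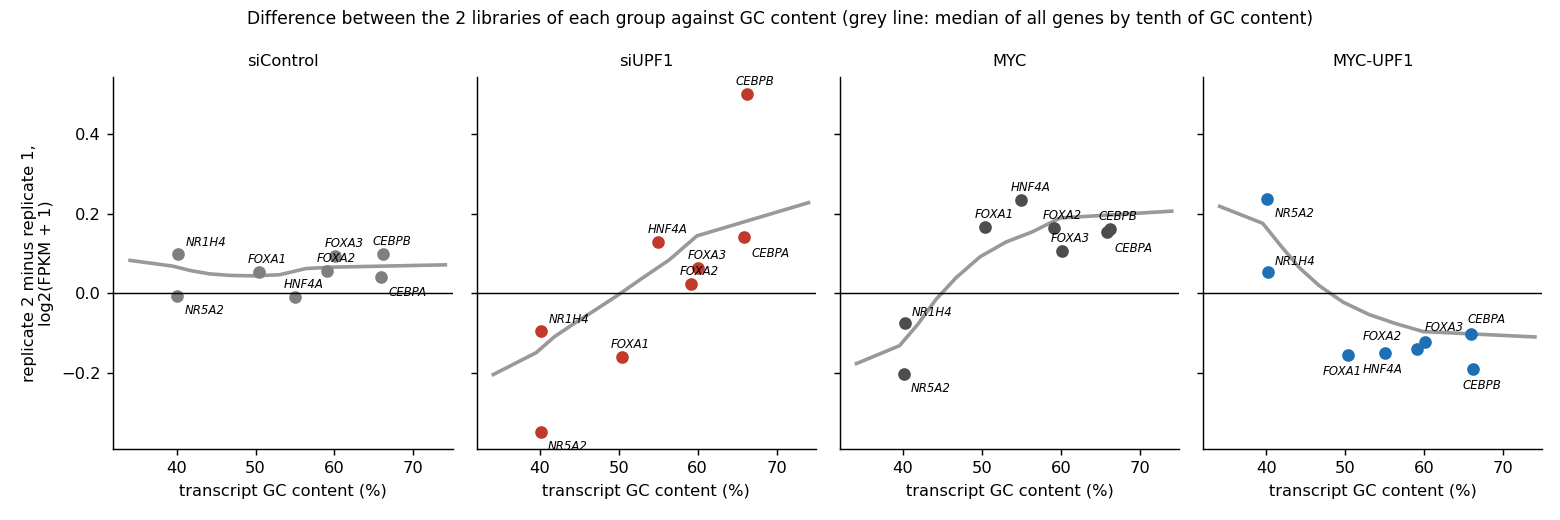
Difference of replicate 2 minus replicate 1 in log2(FPKM + 1) for each member (points) against transcript GC content in percent, for each of the 4 groups, with the median of all genes by class of GC content as a grey line. The grey line rises in siUPF1 and MYC, falls in MYC-UPF1 and is nearly flat in siControl, and some members lie off it, such as CEBPB in siUPF1 at 0.50 where the line ends at 0.23.

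UPF1 depletion was the first comparison. NR5A2 was the only member past the unadjusted threshold, 1 of 8 against 21.5% of the 13535 genes tested (5.51% lower and 16.0% higher in siUPF1). Of all such calls 74.3% were higher, but 50.2% after quantile normalization and 55.8% after centring on the median. No member passed the adjusted threshold, which 0.0369% of all genes did. The groups did not overlap for 3 of 8 members, against 56.0% of all genes. The median log2 fold change was -0.02 for the members and 0.06 for all genes tested.

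NR5A2, the orphan receptor that partners FXR signaling in bile acid synthesis, stood at 7.43 and 7.39 FPKM in siControl and at 6.63 and 4.99 FPKM in siUPF1. Both depleted libraries lay below both controls, and replicate 2 lay farther below. The log2 fold change was -0.32 (standard error, SE, of 0.129, 95% confidence interval -0.62 to -0.01, limma adjusted p = 0.223). It was -0.14 without siUPF1 replicate 2 and -0.49 without siUPF1 replicate 1, fits in which the spread of siUPF1 is not measured. The call was lost without either siControl library, without siUPF1 replicate 2 and without the FPKM minimum. Genes of its GC class had a median of -0.07, and after GC correction NR5A2 was at -0.20 and did not pass (limma adjusted p = 0.221).

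CEBPB, the acute phase and regeneration factor, stood at 8.53 and 9.21 FPKM in siControl and at 9.20 and 13.4 FPKM in siUPF1. Only siUPF1 replicate 2 was high, and replicate 1 lay within the controls. The log2 fold change was 0.30 (SE 0.162, interval -0.09 to 0.68, limma adjusted p = 0.324). It was 0.55 without siUPF1 replicate 1 and 0.05 without siUPF1 replicate 2, so this value rests on 1 library. CEBPB belongs to the class of genes richest in GC, whose median was 0.26, and it was at 0.07 after GC correction.

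CEBPA, its growth-restraining paralog, stood at 101 and 104 FPKM in siControl and at 93.0 and 102.6 FPKM in siUPF1. The groups overlapped, and the log2 fold change was -0.07 (interval -0.30 to 0.16, limma adjusted p = 0.693). CEBPA lies in the same GC class as CEBPB, and after GC correction it was at -0.30, past the unadjusted but not the adjusted threshold (limma adjusted p = 0.0760). In that setting CEBPA was thus lower relative to genes of like composition, at the unadjusted threshold only. Relative to all genes it did not pass the test, and without siUPF1 replicate 1 it was at 0.0018.

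HNF4A, the central nuclear receptor of the network, stood at 44.1 and 43.9 FPKM in siControl and at 40.6 and 44.5 FPKM in siUPF1. The 2 control values lay within the range of the depleted ones. The log2 fold change was -0.05 (interval -0.27 to 0.17, limma adjusted p = 0.779), and -0.14 after GC correction.

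Among the pioneer factors, FOXA3, which is linked to metabolic genes of hepatocytes, was at 20.1 and 21.5 FPKM in siControl and at 22.5 and 23.5 FPKM in siUPF1. FOXA2, an early factor of endoderm and liver, was at 15.6 and 16.2 FPKM in siControl and at 16.7 and 17.0 FPKM in siUPF1. Both genes were higher in both depleted libraries, but neither passed the test. The log2 fold change was 0.14 for FOXA3 (interval -0.08 to 0.36, limma adjusted p = 0.396) and 0.08 for FOXA2 (interval -0.13 to 0.29, limma adjusted p = 0.613). After GC correction the values turned to -0.0015 and -0.05, against a median of 0.20 for genes of their GC class. FOXA1, the pioneer factor shared by liver and hormone-responsive epithelia, was at 18.6 and 19.3 FPKM in siControl and at 19.7 and 17.6 FPKM in siUPF1. Its log2 fold change was -0.02 (interval -0.26 to 0.21, limma adjusted p = 0.909).

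NR1H4, the bile acid receptor, was at 28.3 and 30.4 FPKM in siControl and at 30.0 and 28.1 FPKM in siUPF1. The groups overlapped, with a log2 fold change of -0.01 (interval -0.24 to 0.21, limma adjusted p = 0.941). The value turned to 0.12 after GC correction (limma adjusted p = 0.377), where it and NR5A2, of like GC content, lay on opposite sides of 0.

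**Figure D3:**
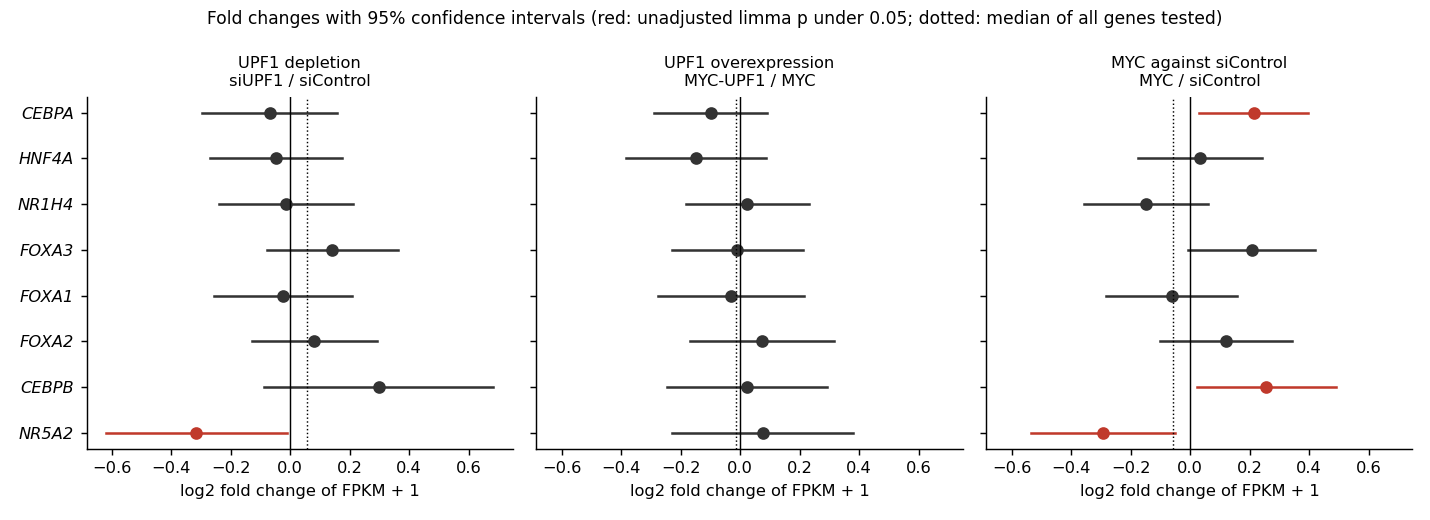
Log2 fold change of FPKM + 1 (x axis) of each member in the depletion, overexpression and control comparisons, with the 95% confidence interval as a bar, an unadjusted limma p under 0.05 in red and the median of all genes tested as a dotted line. NR5A2 is red in depletion, no member is red in overexpression, and CEBPA, CEBPB and NR5A2 are red between the controls.

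After UPF1 overexpression, 0 of 8 members passed the unadjusted limma threshold, against 1.43% of the 13251 genes tested, and 0 of 8 passed the adjusted one, against 0.00755%. The groups overlapped for all 8 members, whereas they did not overlap for 20.7% of all genes. The median log2 fold change was 0.01 for the members and -0.01 for all genes.

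HNF4A had the largest difference. It was at 41.5 and 49.0 FPKM in MYC and at 42.8 and 38.5 FPKM in MYC-UPF1, a log2 fold change of -0.15 (SE 0.105, interval -0.38 to 0.09, limma adjusted p = 1.00). MYC replicate 2 alone stood high, and the value was -0.03 without it and -0.27 without MYC replicate 1, each with 1 library setting the MYC level. After GC correction it was -0.11, and genes of its GC class had a median of -0.06.

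CEBPA was at 112.7 and 125.6 FPKM in MYC and at 115 and 107.1 FPKM in MYC-UPF1, with a log2 fold change of -0.10 (interval -0.29 to 0.09). CEBPB was at 10.1 and 11.5 FPKM against 11.8 and 10.2 FPKM, a log2 fold change of 0.02 (interval -0.24 to 0.29). In each C/EBP gene the high library of one group and the high library of the other carried different replicate numbers.

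FOXA2 was at 16.3 and 18.4 FPKM in MYC and at 19.3 and 17.4 FPKM in MYC-UPF1, with a log2 fold change of 0.07 (interval -0.17 to 0.32). FOXA3 was at 23.2 and 25.1 FPKM against 25.0 and 22.9 FPKM, with a log2 fold change of -0.01 (interval -0.23 to 0.21). FOXA1 was at 17.0 and 19.3 FPKM against 18.8 and 16.7 FPKM, with a log2 fold change of -0.03 (interval -0.28 to 0.21). For all 3 pioneer factors the range in MYC-UPF1 overlapped that in MYC.

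NR1H4 was at 27.1 and 25.7 FPKM in MYC and at 26.3 and 27.4 FPKM in MYC-UPF1, with a log2 fold change of 0.02 (interval -0.18 to 0.23). NR5A2 was at 6.37 and 5.40 FPKM against 5.66 and 6.85 FPKM, with a log2 fold change of 0.08 (interval -0.23 to 0.38). The intervals of the 8 members differed in width, and their outer ends lay at -0.38 for HNF4A and 0.38 for NR5A2.

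**Figure D4:**
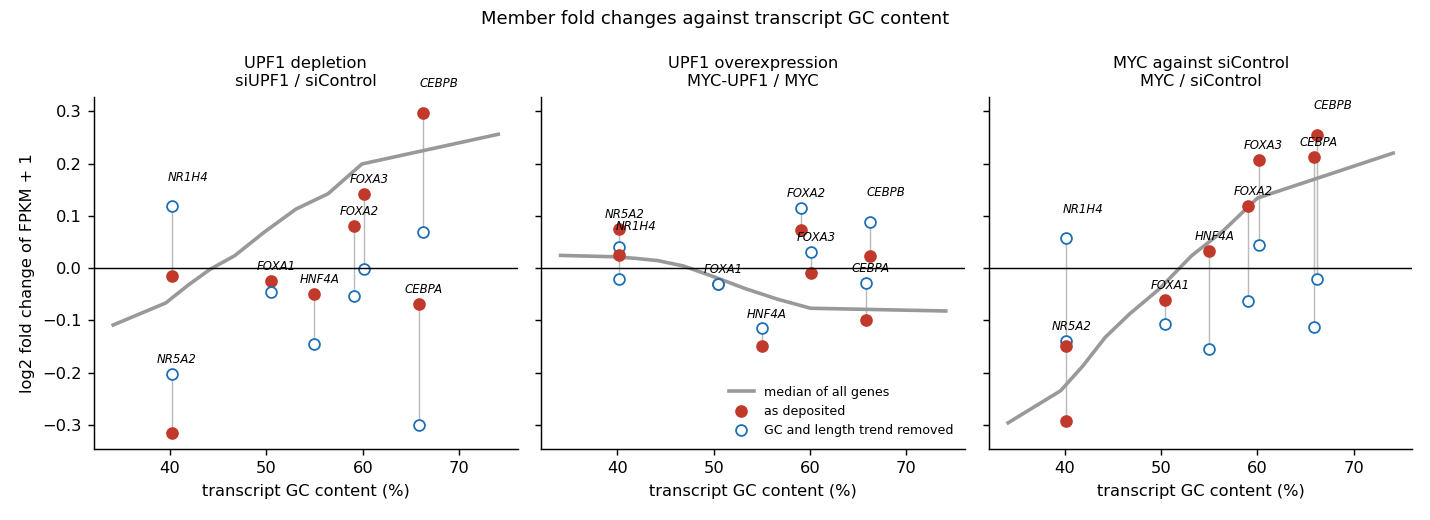
Log2 fold change of FPKM + 1 of each member (y axis) against transcript GC content in percent (x axis) in 3 comparisons, as deposited (filled red) and after GC correction (open blue), with the median of all genes by class of GC content as a grey line. The correction moves CEBPA from -0.07 to -0.30 and NR5A2 from -0.32 to -0.20 in depletion, and CEBPA from 0.21 to -0.11 between the controls.

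The effects of overexpression and depletion share no library, so their difference was tested in 1 model over all 8 libraries. For this difference 0 of 8 members passed the unadjusted limma threshold, against 15.2% of 13412 genes, and 0 passed the adjusted one, against 0.0224%. NR5A2 had the largest value, 0.39 higher in overexpression than in depletion on the log2 scale (SE 0.197, interval -0.05 to 0.83, limma adjusted p = 0.376). The fall of NR5A2 in depleted cells was therefore not shown to differ from its value in overexpressing cells. CEBPB followed with -0.27 (interval -0.76 to 0.21, limma adjusted p = 0.555), and CEBPA was at -0.03 (interval -0.31 to 0.25), which turned to 0.27 after GC correction (limma adjusted p = 0.156).

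The levels of the members also differed between the controls. MYC and siControl cells differ in the kind of transfection, and any batch between the experiments cannot be told apart from it. This comparison shares the siControl libraries with depletion and the MYC libraries with overexpression, so the values of a gene in these comparisons are not independent. In MYC cells 3 of 8 members passed the unadjusted threshold, against 40.9% of the 13359 genes tested, and 0 of 8 passed the adjusted one, against 29.1%. The groups did not overlap for 6 of 8 members, against 66.9% of all genes.

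CEBPA was higher in both MYC libraries (112.7 and 125.6 FPKM) than in both siControl libraries (101 and 104 FPKM), a log2 fold change of 0.21 (SE 0.0886, limma adjusted p = 0.0753). CEBPB was likewise higher, at 10.1 and 11.5 FPKM against 8.53 and 9.21 FPKM, with 0.26 (SE 0.112, limma adjusted p = 0.0916). NR5A2 was lower, at 6.37 and 5.40 FPKM against 7.43 and 7.39 FPKM, with -0.29 (SE 0.116, limma adjusted p = 0.0628). The medians of their GC classes were 0.22 for the C/EBP genes and -0.23 for NR5A2, close to the values of the genes themselves. After GC correction, CEBPA turned to -0.11, CEBPB to -0.02 and NR5A2 was at -0.14, and none of the 3 passed the threshold. Without MYC replicate 2 the values were 0.14, 0.17 and -0.19. Without siControl replicate 1 they were 0.19, 0.21 and -0.29, and without siControl replicate 2 they were 0.23, 0.31 and -0.30. Other scalings raised both C/EBP genes, unlike GC correction. CEBPA and CEBPB passed the adjusted threshold after quantile normalization (0.27 and 0.32, limma adjusted p = 0.0174 and 0.0353) and after centring on the median (0.30 and 0.34, limma adjusted p = 0.0165 and 0.0290). NR5A2 was at -0.22 and -0.21 there, smaller in size as after GC correction, and passed neither threshold. Without MYC replicate 1 the values were 0.29, 0.34 and -0.39. In each fit with a library left out, 1 library sets the level of a group and its spread is not measured. For these 3 members no call is therefore read from those fits. CEBPA and NR5A2 passed the adjusted threshold with the replicate block (limma adjusted p = 0.0202 and 0.0446) and with a minimum of 5 FPKM (limma adjusted p = 0.0486 and 0.0418).

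The other 5 members did not pass the test. FOXA3 was at 0.21 (interval -0.01 to 0.42) and FOXA2 at 0.12, both with non-overlapping groups. FOXA3 passed the unadjusted threshold in 6 of 13 other settings, among them the replicate block (limma adjusted p = 0.0837) and the fit without MYC replicate 1 (0.26). Among the settings that keep every library, it passed the adjusted threshold after quantile normalization (0.26, limma adjusted p = 0.0396) and after median centring (0.29, limma adjusted p = 0.0277). FOXA2 passed the unadjusted threshold after median centring (0.20, limma adjusted p = 0.113). In addition, NR1H4 was at -0.15 with both MYC libraries below both siControl libraries. FOXA1 was at -0.06 and HNF4A at 0.03, with overlapping groups. HNF4A turned to -0.16 after GC correction, where it was the only member past the unadjusted threshold (limma adjusted p = 0.109).

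Partners, paralogs and coregulators of the 8 factors were read next, from lists drawn from general knowledge. After depletion, 2 of 16 tested partner genes rose at the unadjusted threshold and 0 fell, with a list median of -0.01 against 0.06 for all genes. Among all genes 16.0% rose and 5.51% fell. The risers were NCOA1, a coactivator of nuclear receptors (1.74 to 2.30 FPKM, log2 fold change 0.27), and DDIT3, the stress-induced C/EBP family member CHOP (12.5 to 15.2 FPKM, 0.26). Their limma adjusted p-values were 0.187 and 0.207. Both passed the unadjusted threshold after GC correction, but lost the call after quantile normalization (0.18 for NCOA1 and 0.21 for DDIT3). NCOA1 lost it also with the replicate block, and DDIT3 after median centring (0.22). Both lost the call without either siControl library, NCOA1 also without siUPF1 replicate 1 (0.23) and DDIT3 without siUPF1 replicate 2 (0.17).

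After overexpression 1 of 16 partner genes rose and 0 fell, with a median of 0.01, while 1.43% of all genes passed in either direction. The riser was TRIB1, a pseudokinase that directs C/EBPα protein to degradation. TRIB1 was at 4.83 and 5.42 FPKM in MYC and at 9.45 and 8.10 FPKM in MYC-UPF1. Both MYC-UPF1 libraries lay above both MYC libraries, with a log2 fold change of 0.67 (SE 0.127, interval 0.39 to 0.96, limma adjusted p = 0.562). It ranged from 0.57 to 0.77 over 14 other settings and passed the unadjusted threshold in all of them, with adjusted p-values from 0.00215 to 1.00. In siControl and siUPF1 it was at 7.41 and 7.39 FPKM and at 7.55 and 6.03 FPKM. MYC thus had the lowest level of all groups and MYC-UPF1 the highest. Across the experiments the kind of transfection differs as well.

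Of the other hepatocyte transcription factors, 5 of 27 rose after depletion and 1 fell, near the 16.0% and 5.51% of all genes, with a median of 0.05. TEF, a PAR-domain factor under circadian control, was at 2.52 and 2.72 FPKM in siControl and at 4.22 and 4.66 FPKM in siUPF1, with a log2 fold change of 0.59 (SE 0.0980, limma adjusted p = 0.0731). This value passed the unadjusted threshold in 13 of 13 other settings, from 0.47 to 0.74. DBP, its close relative, rose from 0.787 to 1.25 FPKM (0.33), and HLF, the third PAR-domain factor of liver, fell from 5.05 to 3.94 FPKM (-0.29). NR1H3, the oxysterol receptor LXRα, rose from 9.95 to 12.5 FPKM (0.30), and ATF5, a basic leucine zipper factor of the stress response, from 11.98 to 14.79 FPKM (0.28, limma adjusted p = 0.195). NR1H3, DBP and ATF5 had values of 0.18, 0.11 and 0.14 after GC correction and did not pass there, and without siUPF1 replicate 2 NR1H3 was at 0.17 and ATF5 at 0.20. After overexpression 0 of 26 passed by limma, near the 1.43% of all genes, with a median of -0.05 against -0.01 for all genes.

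Hepatocyte genes that HNF4A, FOXA and C/EBP factors are known to control held the largest falls of the depletion comparison among these lists: 2 of 25 rose and 6 fell, beside 16.0% and 5.51% of all genes, with a median of 0.05. HP, which encodes the hemoglobin-binding acute phase protein haptoglobin, was at 19.0 and 20.3 FPKM in siControl and at 11.7 and 10.5 FPKM in siUPF1. MTTP, whose product loads lipid onto apolipoprotein B, was at 58.5 and 64.2 FPKM in siControl and at 38.1 and 33.7 FPKM in siUPF1. In both genes the depleted libraries lay far below both controls. The log2 fold change was -0.77 for HP (SE 0.0986, limma adjusted p = 0.0584) and -0.76 for MTTP (SE 0.105, limma adjusted p = 0.0584). Both passed the unadjusted threshold in 14 of 14 other settings, HP from -0.85 to -0.70 and MTTP from -0.84 to -0.66.

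APOH, a plasma phospholipid-binding apolipoprotein, fell from 157.7 to 109.4 FPKM (-0.53, and -0.35 without siUPF1 replicate 2), and CPS1, the entry enzyme of the urea cycle, from 2.49 to 1.58 FPKM (-0.43). The risers were the coagulation factor genes F10 (18.7 to 23.9 FPKM, 0.34) and F7 (7.33 to 8.96 FPKM, 0.26), neighbours in the genome that encode vitamin K-dependent proteases. F7 was at 0.14 after GC correction and lost its call there, after quantile normalization and without either siControl library, and F10 lost its call without siControl replicate 1. The limma adjusted p-values of these 4 genes lay between 0.0988 and 0.200. After overexpression, APOA2, an apolipoprotein of high-density lipoprotein, was the only 1 of 24 that passed, from 1818 to 2034 FPKM (0.16, limma adjusted p = 1.00), and it lost the call in 7 of 14 other settings. The list median was -0.03, against -0.01 for all genes, of which 1.43% passed in either direction. ALB itself, the classic target, was at 6971 and 7668 FPKM in siControl and at 6550 and 6586 FPKM in siUPF1, and at 8371 and 7419 against 7660 and 7969 FPKM in MYC and MYC-UPF1.

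Of the bile acid genes controlled by NR1H4 and NR5A2, 1 of 11 rose after depletion and 0 fell, with a median of 0.03, where 16.0% and 5.51% of all genes did. The riser was ABCB4, the phospholipid flippase of the canalicular membrane, at 0.25 on the log2 scale (limma adjusted p = 0.195), and it lost the call in 6 of 13 other settings, among them those without either siControl library and without siUPF1 replicate 2. NR0B2, which encodes the repressor SHP and is induced by FXR, was at 4.59 and 3.79 FPKM in siControl and at 4.01 and 4.58 FPKM in siUPF1, with overlapping groups. ABCB11, the bile salt export pump and a standard FXR target, was at 0.157 to 0.276 FPKM and was not tested. After overexpression 0 of 10 passed by limma, near the 1.43% of all genes, with a median of -0.05 against -0.01 for all genes.

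Of the non-coding genes that neighbour or oppose these factors, 2 were tested. HNF4A-AS1, transcribed from the opposite strand within the HNF4A locus, was at 0.503 and 0.617 FPKM in MYC and at 0.889 and 1.07 FPKM in MYC-UPF1, a difference of 0.34 on the log2 scale that passed only the unadjusted threshold (limma adjusted p = 1.00) and was 0.71 with a pseudocount of 0.1. HNF4A itself was not higher in those libraries. In siControl the antisense gene was at 1.38 and 0.990 FPKM and in siUPF1 at 1.09 and 0.644 FPKM. LINC00261, the neighbour of FOXA2, was at 30.4 and 32.3 FPKM in siControl and at 28.5 and 25.4 FPKM in siUPF1, with -0.21 (limma adjusted p = 0.274), so neither passed after depletion.

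Between the controls many more of these genes differed, as did 29.1% of all genes at the adjusted threshold, and 15.4% were higher and 25.6% lower in MYC at the unadjusted one. Of those calls 37.5% were higher, but 50.5% after quantile normalization and 58.3% after centring on the median. Of the partner genes 3 of 16 were higher and 2 lower, 4 of them past the adjusted threshold. PPARGC1B (0.34), RXRA, the obligate partner of FXR (0.30), and EP300 (0.27) were higher, and CEBPD (-0.46) and TRIB1 (-0.46) were lower. After GC correction none of the 3 higher genes passed, and RXRA turned to -0.04. Without MYC replicate 2, RXRA and EP300 were at 0.16 and 0.14 and did not pass.

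Of the other hepatocyte factors 3 of 27 were higher in MYC and 7 lower, 5 past the adjusted threshold. The risers were KLF15 (0.51), TEF (0.44) and ONECUT1 (0.29), and the fallers were led by PROX1 (-0.41), NFIB (-0.37), ZBTB20 (-0.31) and TBX3 (-0.28). Of the target genes 13 of 25 were higher and 5 lower, 12 past the adjusted threshold, and the median was 0.15 against -0.06 for all genes. F10 (0.66), TF (0.57), SERPINA1 (0.43) and APOB (0.40) led the risers, and APOH (-0.38), CPS1 (-0.36), FGB (-0.24) and TAT, the first enzyme of tyrosine breakdown (-0.24), the fallers. Hepatocyte markers, most of which are in that list, were higher for 7 of 10 and lower for 1.

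Of the bile acid genes FGFR4 (0.39) and ABCB4 (0.31) were higher and ABCC2 (-0.61) was lower, 3 of 10, all past the adjusted threshold. Both non-coding genes were lower in MYC, HNF4A-AS1 (-0.48) and LINC00261 (-0.26), and the first passed the adjusted threshold. Without MYC replicate 1, ONECUT1 was at 0.19 and TBX3 at -0.16, and neither passed, and TAT lost its call without any 1 of the 4 libraries. FGFR4, TAT and FGB were at 0.09, -0.16 and -0.08 after GC correction and did not pass there.

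The genes whose pattern over the 8 libraries was most like that of a member were sought among 7753 genes with a mean of at least 5 FPKM, after centring within each experiment. HNF4A ran most closely with FAH, the last enzyme of tyrosine breakdown (Pearson r = 0.991), CDC42EP1 (0.982) and PHF19 (0.980), and CEBPA with MYBBP1A (0.984), NPRL2 (0.982) and FAH again (0.982). FOXA3 ran with NCKAP5L (0.992), NARF (0.990) and IVD (0.988), FOXA1 with SPRED2 (0.985), TRAPPC4 (0.975) and DNMT3B (0.971), and FOXA2 with RAB11FIP5 (0.968), SETDB1 (0.949) and RHBDF1 (0.946). CEBPB ran with PLEKHO1 (0.980), TFPT (0.979) and PHGDH (0.977). NR1H4 ran with PBX3 (0.985), UBE3A (0.985) and VPS35 (0.982), and NR5A2 with FOXN2 (0.990), TXNDC17 (0.986) and SUCLA2 (0.985). Transcript GC content was 34.4% to 44.01% for the 6 genes most like NR1H4 and NR5A2 and 46.5% to 66.1% for those most like the other members. Among the members themselves the closest pair was HNF4A and CEBPA (r = 0.957) and the most opposed CEBPB and NR5A2 (r = -0.943). These values describe 8 libraries that share controls within an experiment and differ in their GC slopes. With so many genes compared, some high values arise from any pattern.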

How the data were processed

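Stranded mRNA libraries of Huh7 cells (4 groups, 2 libraries each) were sequenced at both ends. As the study's methods and the submitters' processing notes state, the authors trimmed the reads with Trimmomatic 0.38, aligned them to hg19 with HISAT2 2.1.0, assembled transcripts against NCBI annotation with StringTie 1.3.4d and deposited FPKM per gene and library. How genes were chosen for the tables is not given in the sources used here. Whole reads could not be recovered, since among 1163 low genes the commonest ratio between libraries held for at most 0.516%, so depth is unknown. Single-library files and tables differed in 0 values.

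Each comparison was fitted over all genes in limma 3.58.1 (R 4.3.3; lmFit, eBayes with trend) on log2(FPKM + 1) with a mean of at least 0.5 FPKM, which understates changes of low genes, and adjusted by Benjamini-Hochberg. The method was tested on simulated data. Members and lists were chosen with earlier results of these data known. All members are named. Of each list, genes past the unadjusted threshold with non-overlapping groups are named, at most 4 in each direction, ranked by log2 fold change, and the 3 genes most correlated with each member. ALB, NR0B2, ABCB11 and LINC00261 after depletion were added after their values were seen. Transcript GC content and length came from GENCODE 44 for 15741 of 17076 genes. GC correction subtracted a loess fit (span 0.5) on both from each library. Further alternatives were quantile normalization, centring on the median, a pseudocount of 0.1, a minimum of 5 FPKM or none, 1 fit of all libraries, eBayes without trend, a replicate block, and leaving out each library. Listed genes not analysed here were RXRG, NR5A1, CEBPE, NR1I3, F9, PCK1, CYP3A4, CYP7A1, CYP8B1, SLC10A1 and CEBPA-AS1, and some further genes were left out of the lists and their counts and are not reported here. Figures were drawn in Python 3.11.15 with matplotlib 3.10.9.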

Additional observations from a re-analysis of the deposited data

Results flagged for a closer look

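F10, which encodes coagulation factor X and is among the hepatocyte genes that the described factors control, differed between the 2 experiments. It was at 17.6 and 19.8 FPKM in siControl and at 21.9 and 26.0 FPKM in siUPF1, and at 29.9 and 30.3 FPKM in MYC and at 29.0 and 27.4 FPKM in MYC-UPF1. Both depleted libraries lay above their controls and both overexpressing libraries below theirs, which is the pattern that flagged this gene. The difference of the effects was thus read on the values that picked the gene. After overexpression F10 did not pass the unadjusted threshold. The overexpression effect minus the depletion effect was -0.43 on the log2 scale, past the unadjusted threshold but not the adjusted one (limma adjusted p = 0.231). ATF5, a hepatocyte-expressed stress factor, also differed. It was at 11.4 and 12.5 FPKM in siControl and at 13.9 and 15.7 FPKM in siUPF1, and at 9.27 and 10.4 FPKM in MYC and at 8.95 and 8.96 FPKM in MYC-UPF1. It too was flagged for lying above its controls in both depleted libraries and below them in both overexpressing ones. It did not pass after overexpression, and the same difference was -0.40, again past the unadjusted threshold only (limma adjusted p = 0.253). In their GC class the median difference over all genes was -0.28 and 7.31% of the genes had a difference above 0, and 15.2% of all genes passed the unadjusted threshold for it. No group has enough libraries for a search for outlying samples.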

How the results depend on the processing

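The number of members past the unadjusted limma threshold depended on the setting. After depletion it was 1, beside 2908 of 13535 genes, and 0 without the FPKM minimum, beside 3055 of 17076 genes. After GC correction it was also 1, beside 3007 of 12833 genes, with CEBPA called in place of NR5A2. After overexpression it was 0, beside 189 of 13251 genes. Between the controls it was 3, beside 5468 of 13359 genes. It was 4 without the FPKM minimum (5556 of 17076 genes) and after median centring (5456 of 13359). It was 2 in 1 fit of all libraries (4827 of 13412 genes) and without trend (5409 of 13359), and 1 after GC correction (4818 of 12683). For the difference of the effects it was 0, beside 2041 of 13412 genes. It was 1 after quantile normalization (1931 of 13412 genes), after median centring (1883 of 13412) and after GC correction (2224 of 12735). With a library left out, the spread of 1 group is not measured, so the member counts of those fits are not given.

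GC correction turned the log2 value of FOXA2 to -0.054, FOXA3 to -0.0015 and NR1H4 to 0.12 after depletion, and FOXA3 to 0.032 and NR1H4 to -0.021 after overexpression. Between the controls it turned HNF4A to -0.16, FOXA2 to -0.062, CEBPA to -0.11, CEBPB to -0.021, NR1H4 to 0.057 and RXRA to -0.039, and for the difference of the effects CEBPA to 0.27 and CEBPB to 0.018. Quantile normalization turned FOXA3 to 0.022 after overexpression and the CEBPA difference to 0.013. Median centring turned FOXA1 to 0.021 between the controls and the CEBPA difference to 0.017. For these reversals under scaling the cause was not tested.

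With a library left out, these members crossed 0. After depletion HNF4A ranged from -0.11 to 0.015, CEBPA from -0.14 to 0.0018, FOXA1 from -0.10 to 0.056 and NR1H4 from -0.065 to 0.035. After overexpression FOXA1 ranged from -0.11 to 0.053, FOXA2 from -0.0083 to 0.16, FOXA3 from -0.070 to 0.051, CEBPB from -0.071 to 0.12, NR1H4 from -0.013 to 0.062 and NR5A2 from -0.043 to 0.19. Between the controls FOXA1 ranged from -0.15 to 0.022 and HNF4A from -0.084 to 0.15, and the CEBPA difference from -0.11 to 0.046. A lone library was assumed to vary like the other group. HP, MTTP, APOH, CPS1 and TEF after depletion and TRIB1 after overexpression kept their direction and their side of the unadjusted threshold under every alternative run.

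Counts over all genes also moved. After depletion 5 genes passed the adjusted threshold, and 0 did without the FPKM minimum, after quantile normalization, after median centring and with the block, 316 with a minimum of 5 FPKM, 456 after GC correction, 377 in 1 fit of all libraries and 121 to 4546 with a library left out. After overexpression 189 passed the unadjusted threshold, 409 without the minimum, 49 with a minimum of 5 FPKM, 401 after GC correction and 216 to 777 with a library left out, and 1 passed the adjusted one, 2 with a pseudocount of 0.1 or GC correction and 5 to 63 with a library left out. Between the controls 3883 passed the adjusted threshold, 1310 without the minimum, 2372 in 1 fit of all libraries and 1233 to 5818 with a library left out. For the difference 3 passed it, 1 without the minimum, 11 with a minimum of 5 FPKM, 144 after GC correction, 8 with the block and 1 to 416 with a library left out.

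The replicate numbers gave 2 pairs per comparison. Correlations of same-numbered deviations were -0.13 in depletion, -0.57 in overexpression and 0.01 between the controls. Whether same-numbered libraries belong together is not given in the sources used here. What lies behind the negative value in overexpression was not tested. With the replicate block, the members past the unadjusted threshold were 1, 0, 4 and 0 in the 4 tests. Beside them passed 2586 of 13535, 170 of 13251, 5919 of 13359 and 1400 of 13412 genes. With the block, 20 genes passed the adjusted threshold after overexpression. A crossed pairing, chosen after seeing the data, gave 1 and 1 members past the unadjusted threshold in depletion and overexpression. Of all genes, 3102 of 13535 and 1227 of 13251 passed it, and 90 and 32 passed the adjusted one.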
